A study of Homo sapiens with 18 samples.

Results

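The annexins of HCT116 colorectal carcinoma cells were followed across 9 clones of this established human line, with 2 expression arrays for each clone. All probe sets (groups of short probes that report 1 transcript) whose only gene symbol was ANXA1, ANXA2, ANXA3, ANXA4, ANXA5, ANXA6, ANXA7, ANXA10, ANXA11 or ANXA13 were taken, which gave 19 of the 54675 probe sets on the array. One further probe set, 201077_s_at, is assigned to both SNU13 and ANXA2 and was left out (1295.0 to 1978.4 signal units). ANXA10 was chosen by its low signal in targeted clones relative to the parental line, and the other 9 genes as members of its family. The values that chose ANXA10 are therefore given as a description, with no test.

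Parental HCT116 cells are wild-type at IDH1 and IDH2, which encode the cytosolic and mitochondrial NADP-dependent isocitrate dehydrogenases. The other 8 clones carry a heterozygous targeted allele: IDH1 R132H/+ in 2C11 and 2H1, IDH1 R132C/+ in 3A4, IDH2 R140Q/+ in 8G12 and 17H5, and IDH2 R172K/+ in 47C2 and 45G3. Clone 16F8 also carries IDH1 R132C/+ but does not express the mutant allele, so its mRNA is wild-type and it serves as a targeted wild-type reference. All cells were grown for 6 days with no treatment, and each mutant genotype rests on 1 or 2 clones. Within 1 clone, an effect of its allele and a property of the clone cannot be told apart.

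Annexins are cytosolic proteins whose conserved core binds acidic phospholipids when calcium rises, and whose variable N-terminal tail binds partners such as S100 proteins. They take part in membrane repair, vesicle traffic, endocytosis and, at the cell surface, in plasminogen activation and the handling of dying cells. ANXA10 is an unusual member with degenerate calcium-binding sites. In the digestive tract it is best known from gastric epithelium, and in pathology it is used as a marker of gastric-type differentiation and of serrated colorectal lesions.

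The promoters of the members differed in base composition, and 3 of them are shown because they span that range. Reference sequence was taken from RefSeq (GRCh38.p14) as the 250 bases before the annotated start, in which 9 member genes had 13 promoters. Capitals mark each CG dinucleotide and a TATAAA motif within the last 40 bases.
ANXA10, chr4:168092287-168092536, + strand: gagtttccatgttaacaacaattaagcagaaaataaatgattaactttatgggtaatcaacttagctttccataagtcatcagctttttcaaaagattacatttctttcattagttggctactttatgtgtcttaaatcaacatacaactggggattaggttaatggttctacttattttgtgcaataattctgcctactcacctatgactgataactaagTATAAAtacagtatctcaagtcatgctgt
ANXA1, chr9:73151615-73151864, + strand: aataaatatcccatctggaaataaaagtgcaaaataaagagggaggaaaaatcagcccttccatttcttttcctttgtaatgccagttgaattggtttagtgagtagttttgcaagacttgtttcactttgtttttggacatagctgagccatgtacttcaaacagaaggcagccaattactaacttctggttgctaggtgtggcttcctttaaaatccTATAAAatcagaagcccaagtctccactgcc
ANXA5, chr4:121696981-121697230, - strand: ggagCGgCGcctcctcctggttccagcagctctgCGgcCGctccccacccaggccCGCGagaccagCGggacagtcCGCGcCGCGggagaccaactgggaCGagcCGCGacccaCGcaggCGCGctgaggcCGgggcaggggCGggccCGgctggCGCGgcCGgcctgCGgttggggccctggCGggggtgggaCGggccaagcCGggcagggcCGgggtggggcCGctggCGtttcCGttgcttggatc
The ANXA10 window held no CG dinucleotide, had a GC content of 31.2% and carried TATAAA 29 bases before the start. The ANXA1 window also held no CG dinucleotide, had a GC content of 38.4% and carried TATAAA 31 bases before the start. The ANXA5 window held 31 CG dinucleotides at a GC content of 78.8%. The other member promoters held 5 to 36, and the median over 35116 RefSeq promoters was 11. TATAAA was found in 3 of the 13 member promoters. The third was that of ANXA2, 31 bases before the start, in a window with 28 CG dinucleotides and a GC content of 78.0%. Of all promoters, 6.06% held no CG dinucleotide, 2.44% had TATAAA on the given strand within the last 40 bases (0.906% had its complement TTTATA), and 0.282% had both no CG and TATAAA. The E-box CACCTG or its complement CAGGTG, the motif ZEB1 binds, was found in 5 of 13 member promoters and in 17.5% of all promoters, and in neither the ANXA10 nor the ANXA1 window. These matches describe the reference sequence, and DNA methylation was not measured in these arrays.

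Array signals were comparable in scale. The medians of the 18 arrays lay between 12.3 and 15.6 signal units, and the 2 arrays of a clone correlated at 0.9862 to 0.9942 over the tested probe sets. In 4 arrays (the first of parental, 2C11 and 16F8, and the second of 8G12) the poly-A control transcripts lay 1.57-fold above the rest. Of 9 colorectal epithelial markers, 7 passed the filter on dim signals, with EPCAM at 1392.3 to 2701.6, whereas the differentiation markers VIL1 and LGALS4 lay below the array median in all 18 arrays. Of 8 fibroblast markers 1 passed, COL1A1 (187 to 358.5), and COL1A2, COL3A1, DCN and LUM were below the median in all 18 arrays. Of 4 haematopoietic markers on the array 1 passed, HBB (6.4 to 24.5), and PTPRC was below the median in all 18 arrays, as were the 3 endothelial markers PECAM1, VWF and CDH5.

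To be tested, a probe set had to reach the median of its array in both arrays of some clone, and 16 of the 19 annexin probe sets did. Of the probe sets left out, 208323_s_at of ANXA13, the annexin of the intestinal brush border, read 0.1 to 5.7. The second ANXA1 probe set, 233011_at, read 0.1 to 4.6, and the second ANXA6 probe set, 244250_at, read 0.4 to 4.9. None of these 3 reached the median in any array, so no annexin result comes from them. Of the 16 tested probe sets, 15 lay above the median in all 18 arrays, and ANXA10 did so in 6. ANXA10 thus passed the filter through the clones in which it was high.

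ANXA10 (probe set 210143_at) was measured clearly in 2 clones, parental and 3A4. In parental cells it read 243.3 and 169.6 signal units, and in 3A4 it read 129.8 and 110.6. In the IDH1 R132H/+ clones it read 2.5 and 3.5 in 2C11 and 17.2 and 10.6 in 2H1. These 2 clones of the same allele did not overlap, and 2H1 had 1 array above the median and 1 below it. In the IDH2 R140Q/+ clones ANXA10 read 0.8 and 1.5 in 8G12 and 2.1 and 4.9 in 17H5, below the median in all 4 arrays. In the IDH2 R172K/+ clones it read 12.5 and 12 in 47C2 and 2.6 and 77.1 in 45G3. The 2 arrays of 45G3 disagreed, 1 being among the dim arrays and the other the highest outside parental and 3A4. In 16F8, which expresses only wild-type IDH1, it read 2.7 and 0.0, so the 2 clones with wild-type IDH mRNA lay at opposite ends of the range. Neither array of parental overlapped any array of another clone, and the same held for 3A4.

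**Figure D1:**
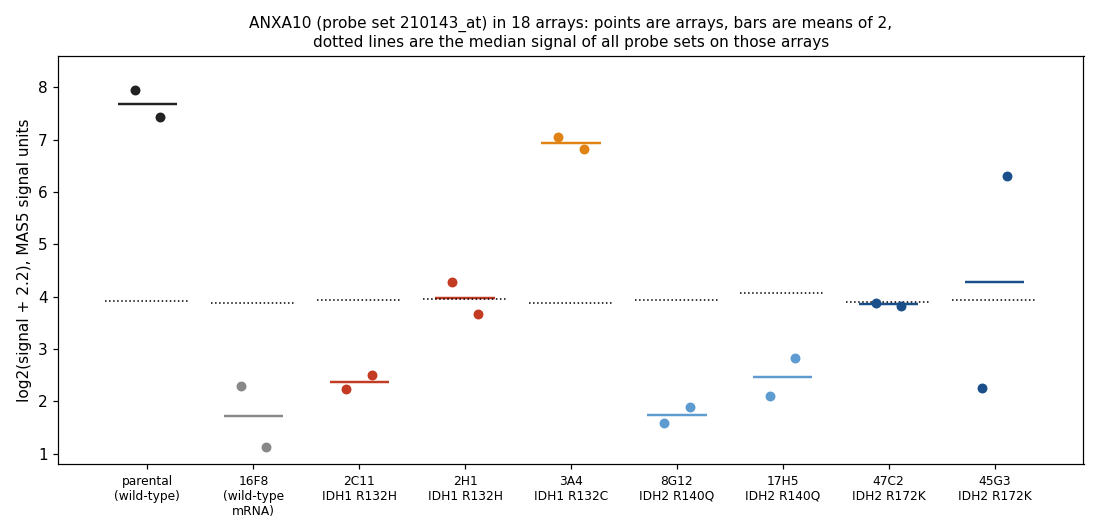
ANXA10 signal as log2(signal + 2.2) in each of 18 arrays, by clone; points are arrays, bars are means of 2 and dotted lines are the median signal of all probe sets on those arrays. Parental and 3A4 lie far above the median, the arrays of 16F8, 2C11, 8G12 and 17H5 lie below it, and the arrays of 45G3 lie on both sides.

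On the linear scale the mean ANXA10 signal was 206.4 in parental, 120.2 in 3A4, 39.85 in 45G3, 13.9 in 2H1, 12.25 in 47C2, 3.5 in 17H5, 3 in 2C11, 1.35 in 16F8 and 1.15 in 8G12 (n = 2 arrays each). The signal of 3A4 was thus 58.2% of parental. The spread, a standard deviation between the 2 arrays of a clone pooled over all clones, was 1.03 on the log2 scale. It came mostly from 45G3, whose arrays lay at 2.263 and 6.309. Parental and 3A4 were 0.75 apart, less than that spread, but their arrays (7.94 and 7.425 against 7.044 and 6.818) did not overlap. 3A4 and the next clone, 45G3, were 2.645 apart, more than the spread. Of the lower neighbours in the order of log2 means, 47C2 and 17H5 differed by 1.387, and every other pair of neighbours from 45G3 down differed by less than the spread.

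The log2 difference from parental was -0.75 in 3A4, -3.40 in 45G3, -3.70 in 2H1, -3.83 in 47C2, -5.22 in 17H5, -5.31 in 2C11, -5.95 in 8G12 and -5.97 in 16F8, each with a standard error of 0.78. These differences chose the gene and carry no test. Signals under the array median have only a bound, so the dim arrays were also set at their median. On the means of log2 signals ANXA10 was then at least 15.6-fold lower than parental in 2C11, 16.1-fold in 16F8, 15.5-fold in 8G12, 13.9-fold in 17H5 and 15.9-fold in 47C2, where both arrays were below the median. In 2H1 and 45G3 1 array each was below the median, and no bound is given. The log2 value for 45G3 rested on its arrays: without replicate 1 it was -1.37 and without replicate 2 it was -5.42. With the poly-A control level as a covariate it was -2.18. Fewer cells with ANXA10 RNA and less of it per cell cannot be told apart in bulk RNA.

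Set against 16F8 in place of parental, ANXA10 was higher in 3A4 by 5.22 on the log2 scale (standard error 0.78). In the other mutant clones the difference from 16F8 ran from 0.02 in 8G12 to 2.57 in 45G3. The low signal of 16F8 is among the values that chose the gene, so these differences are also given without a test. The same holds for the mutant groups, whose low signals also chose the gene. The mean signal was 45.7 over 3 IDH1-mutant clones and 14.19 over 4 IDH2-mutant clones, and among the latter 26.05 over the R172K and 2.325 over the R140Q clones. The IDH1-mutant mean came mostly from 3A4 and the R172K mean mostly from 1 array of 45G3.

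The 5 genes whose clone means were most like those of ANXA10 were MICAL2, UBE2H, SEC23B, CDKN2B and POLN. Their Pearson r over 9 clones was 0.961, 0.958, 0.954, 0.953 and 0.93. They came from 5491 candidate probe sets with a range of at least 1, each gene taken by its most alike probe set. MICAL2, an oxidoreductase acting on actin, read 720.8 in parental and 674.3 in 3A4, against 291.9 to 476.6 in the other 7 clones. CDKN2B, the cyclin-dependent kinase inhibitor p15, read 446.3 in parental and 485.1 in 3A4, against 131.2 to 217.8. Both genes were thus higher in parental and 3A4 than in any other clone, as ANXA10 was, but the other clones kept a clear signal. SEC23B, a coat protein of vesicles leaving the endoplasmic reticulum, read 1066 and 908.4 against 432.5 to 620.6. UBE2H, a ubiquitin-conjugating enzyme, read 192.2 and 196.1 against 86.45 to 114.1. POLN, a DNA polymerase, read 12.35 and 15.7 against 6.4 to 11.1, near or below the array median. The likeness is a description: the 9 points share their arrays, and these genes were selected for it.

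Genes that accompany ANXA10 in gastric-type and serrated lesions were mostly dim. Of 24 such markers, 7 passed the filter. The stomach genes MUC6, TFF1, GKN1, GKN2, AQP5 and VSIG1 were below the median in all 18 arrays, parental and 3A4 included. The 7 tested markers were MUC5AC, SERPINB5, KLK10, ZIC2, GATA6, FOXA1 and FOXA3. In 3A4, SERPINB5 (0.44), GATA6 (0.45) and FOXA1 (0.83) rose against parental and KLK10 fell by 0.57 on the log2 scale (limma adjusted p = 0.0038, 0.0262, 0.0497 and 0.00351). KLK10 also fell in 47C2, by 0.47 (adjusted p = 0.0163), and GATA6 rose in 45G3, by 0.51 (adjusted p = 0.0167). In the 5 other clones none of the 7 passed. Over all 29070 tested probe sets the share called was 31.5% for 3A4, 21.9% for 47C2 and 23.9% for 45G3, and 8.38% to 25.9% for the others.

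The rest of the family varied less over the clones than ANXA10. The 15 other tested probe sets had ranges of clone means from 0.22 to 0.96 on the log2 scale, against 5.97 for ANXA10. The median range over all tested probe sets was 0.677. That median also covers dimmer probe sets, so it is no matched benchmark. Against parental, 27 of 120 combinations of probe set and clone passed the test (limma, Benjamini-Hochberg adjusted p below 0.05), 14 higher and 13 lower. Of the 15 probe sets, 3 passed in 3A4, 2H1, 2C11, 47C2, 8G12 and 17H5, 4 in 16F8 and 5 in 45G3. Over all 29070 probe sets the share called was 31.5% for 3A4, 25.9% for 2H1, 20.5% for 2C11, 21.9% for 47C2, 13.4% for 8G12, 8.38% for 17H5, 16.4% for 16F8 and 23.9% for 45G3. The annexin shares were 20% in the first 6 of these clones, 26.7% in 16F8 and 33.3% in 45G3, below the background in 3A4, 2H1 and 47C2 and above it in 8G12, 17H5, 16F8 and 45G3. The 3 calls in 17H5 were all lower, where 3.25% of all probe sets were. The comparisons share the 2 parental arrays. Without the second parental array 11 of the 120 combinations passed.

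Against 16F8, 12 of 105 combinations of the same 15 probe sets passed, all of them higher in the mutant clone. There were 7 in 3A4, where 21.7% of all probe sets passed (9.6% higher), 4 in 2H1, where 12.3% passed (5.63% higher), and 1 in 47C2, where 4.38% passed (1.87% higher). In 2C11, 8G12, 17H5 and 45G3 none passed, where 1.41%, 0.433%, 5.77% and 1.53% of all probe sets did. At an unadjusted limma p under 0.05 the counts in these 4 clones were 5, 0, 3 and 2 of the 15. Over all 29070 tested probe sets the counts at that threshold were 3402, 1773, 6255 and 3668. The alternative fits were counted with ANXA10, whose differences from 16F8 are a description and no test. Counted so, 13 of 112 combinations reached the threshold, and 20 did with the poly-A control level as a covariate. Over all probe sets 13817 and 17614 of 203490 did in the same fits. Without a filter 9 of 133 annexin combinations did, and without a variance trend 9 of 112. Over all probe sets these were 10912 of 382291 and 12207 of 203490. Quantile normalization gave 15, an offset of 16 gave 12 and a replicate block gave 11 of 112. Over all probe sets these 3 fits gave 14842, 13989 and 13701 of 203490. The annexin count fell without the first 16F8 array and without either 3A4 array. The median difference of the 15 probe sets from 16F8 was 0.30 in 3A4 and 0.25 in 2H1, against -0.01 and 0.008 over all probe sets.

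**Figure D2:**
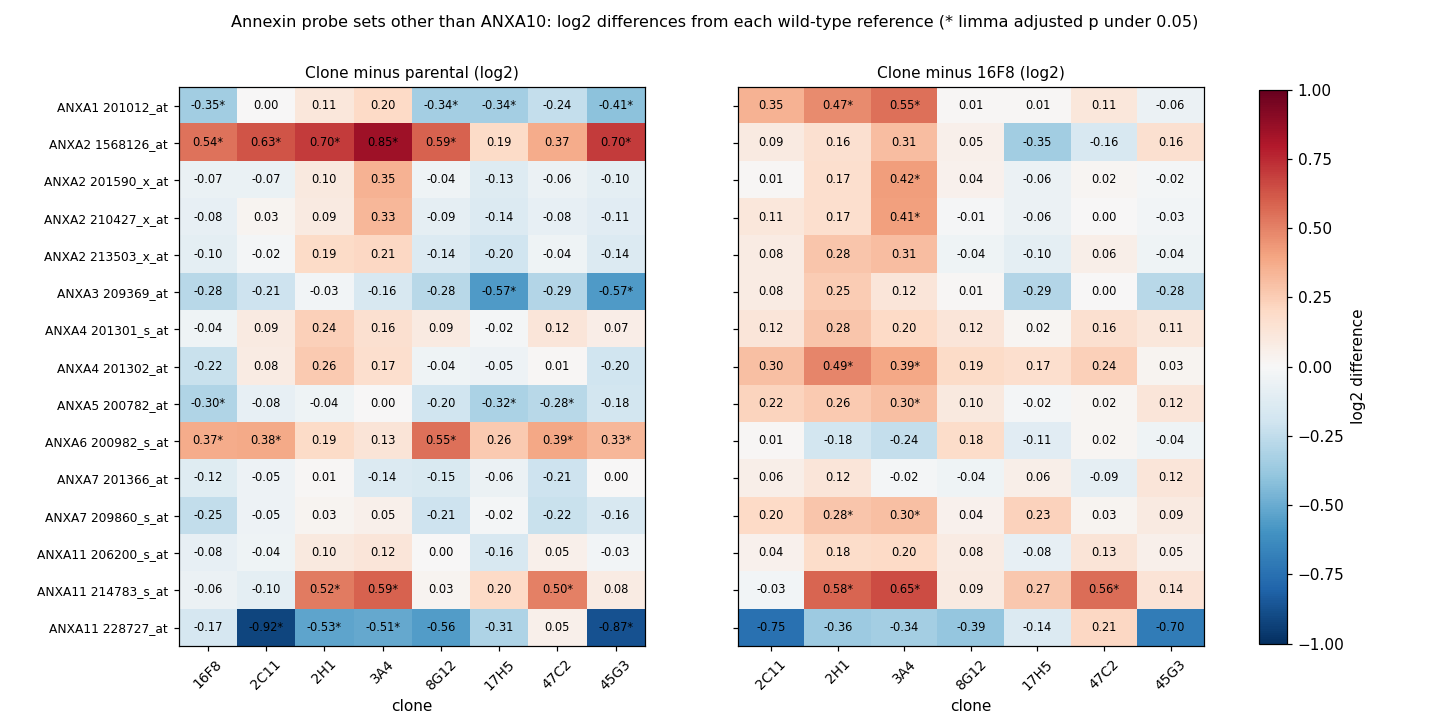
Log2 differences of 15 annexin probe sets from parental (left, 8 clones) and from 16F8 (right, 7 mutant clones), with blue for lower, red for higher and an asterisk for a limma adjusted p under 0.05. ANXA2 1568126_at and ANXA6 are red across the left panel, and the starred cells of the right panel are all red and lie mostly in 2H1 and 3A4.

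ANXA1, an anti-inflammatory annexin that binds formyl peptide receptors and is a substrate of the EGF receptor, separated the IDH1-mutant from the IDH2-mutant clones. Probe set 201012_at read 2774.2 and 3276.1 in 2C11, 3328.2 and 3195.7 in 2H1, and 3409.8 and 3512.1 in 3A4. In the IDH2-mutant clones it read 2435.5 and 2312.5 in 8G12, 2442.5 and 2325.5 in 17H5, 2645.3 and 2460.5 in 47C2, and 2337.2 and 2202.6 in 45G3. All 6 IDH1-mutant arrays lay above all 8 IDH2-mutant arrays. Parental arrays read 2909.3 and 3123.3, among the IDH1-mutant arrays, and 16F8 arrays read 2393.4 and 2329.1, among the IDH2-mutant ones. The wild-type clones thus fell on opposite sides.

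Against parental, ANXA1 fell in 16F8 by 0.35, in 8G12 by 0.34, in 17H5 by 0.34 and in 45G3 by 0.41 (SE 0.09; limma adjusted p = 0.0131, 0.0174, 0.0286 and 0.00362). Against 16F8 it rose in 2H1 by 0.47 and in 3A4 by 0.55 (adjusted p = 0.00244 and 0.000328). In 2C11 the difference from 16F8 was 0.35 (adjusted p = 0.0691). Without the second parental array the calls in 16F8, 8G12 and 17H5 were lost, and the call in 45G3 kept its side of the threshold in all 25 alternatives. With the clone as the replicate, the IDH1-mutant mean of 3249 exceeded the IDH2-mutant mean of 2395 by 0.44 ± 0.09, with an unadjusted limma p of 0.000304 and an adjusted p of 0.185. That difference did not pass the threshold over all probe sets.

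ANXA2 forms a complex with S100A10 that gathers plasminogen and its activators at the cell surface. It had 4 probe sets, which differed in pattern. Probe set 1568126_at read 815.3 and 590.7 in parental, the lowest mean, and 815.8 and 770.6 in 17H5, the next lowest. It read 936.8 and 865.1 in 47C2, 1111.0 and 917.2 in 16F8, and 968.7 and 1126.1 in 8G12. In 2C11 it read 1173.6 and 983.7, in 45G3 1000.4 and 1264.8, in 2H1 1183.9 and 1080.0, and in 3A4 1253.5 and 1248.1. All 8 targeted clones were above parental in their means, and 1 array, of 17H5, lay below the higher parental array. The rise passed in 6 clones, by 0.85 in 3A4, 0.70 in 2H1 and 45G3, 0.63 in 2C11, 0.59 in 8G12 and 0.54 in 16F8 (SE 0.15; limma adjusted p = 0.000388, 0.00221, 0.00282, 0.00607, 0.0138 and 0.0193). Without the second parental array, the lower of the pair, the calls in 2C11, 16F8, 8G12 and 45G3 were lost. Against 16F8 this probe set differed by -0.35 to 0.31 and passed in no clone.

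The other 3 ANXA2 probe sets (201590_x_at, 210427_x_at and 213503_x_at) read 2651.8 to 4604.3 and passed against parental in no clone, with differences of -0.20 to 0.35. Against 16F8, 201590_x_at rose in 3A4 by 0.42 (limma adjusted p = 0.037) and 210427_x_at by 0.41 (adjusted p = 0.0496). The call of 210427_x_at was lost in 16 of 24 alternatives. With the poly-A level as a covariate neither passed (0.31 and 0.30, adjusted p = 0.0594 and 0.085). The _x_at suffix marks probes that can match several transcripts. ANXA2 has near-identical processed pseudogenes, of which ANXA2P2 (208816_x_at) read 1084.2 to 2225.2, so the share of ANXA2 itself in these signals is uncertain. Why 1568126_at differed from them was not tested.

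ANXA3, an annexin linked to phospholipase inhibition, was highest in parental, at 3083.3 and 3388.0, and below it in all 8 other clones. It fell by 0.57 in 17H5 (2363.9 and 1993.8) and by 0.57 in 45G3 (1900.5 and 2508.8), with SE 0.12 and limma adjusted p of 0.00769 and 0.003. In the 6 clones that did not pass, the differences ran from -0.29 to -0.03. Both calls were lost after quantile normalization.

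ANXA4, a membrane-aggregating annexin abundant in secretory epithelia, was lowest in 16F8. Probe set 201302_at read 756.8 and 746.1 in 16F8, against 1072.6 and 1035.6 in 2H1 and 1036.2 and 939.5 in 3A4. It rose against 16F8 in 2H1 by 0.49 and in 3A4 by 0.39 (SE 0.10; limma adjusted p = 0.00246 and 0.00684), and the call in 3A4 was lost without its first array. None of the 8 differences from parental (-0.22 to 0.26) passed. The second probe set, 201301_s_at, read 560.4 to 717.1 and passed nowhere, with differences of 0.02 to 0.28 from 16F8.

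ANXA5, the phosphatidylserine-binding annexin used to stain dying cells, had a narrow range from 1158.3 to 1544.4. Parental read 1544.4 and 1476.1 and 16F8 read 1294.3 and 1158.3. The signal fell against parental in 16F8 by 0.30, in 17H5 by 0.32 and in 47C2 by 0.28 (SE 0.09; limma adjusted p = 0.0292, 0.0339 and 0.033). It rose in 3A4 against 16F8 by 0.30 (adjusted p = 0.0251). All 4 calls were lost after quantile normalization, without a variance trend, and when single arrays of the clone or its reference were left out.

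ANXA6, which is built from a pair of annexin cores and acts as a scaffold at membranes, was lowest in parental cells. It read 572.7 and 537.1 in parental and was higher in all 16 other arrays. In the IDH2-mutant clones it read 834.5 and 794.7 in 8G12, 665.1 and 661.6 in 17H5, 700.3 and 756.3 in 47C2, and 749.6 and 646.8 in 45G3. In 16F8 it read 715.2 and 721.3, and in 2C11 757.3 and 689.8. The lowest values after parental were those of 3A4 (627.6 and 587.3) and 2H1 (661.4 and 605.6). ANXA6 rose in 5 clones, by 0.55 in 8G12, 0.39 in 47C2, 0.38 in 2C11, 0.37 in 16F8 and 0.33 in 45G3 (SE 0.10; limma adjusted p = 0.00143, 0.0105, 0.0127, 0.0176 and 0.0261). Without the second parental array the calls other than that of 8G12 were lost. The call in 45G3 was also lost with the poly-A level as a covariate (0.33, adjusted p = 0.0567). Over the 9 clone means ANXA6 correlated with ANXA10 at r = -0.85 and with ANXA1 at -0.63, a description over points that share arrays.

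ANXA7 (synexin, which fuses secretory vesicles and binds sorcin) had 2 probe sets. One, 209860_s_at, was lowest in 16F8 at 801.1 and 852.0 and rose against it in 2H1 by 0.28 (1024.5 and 977.6) and in 3A4 by 0.30 (995.2 and 1034.6), with limma adjusted p of 0.044 and 0.0202. The call in 2H1 was lost in 17 of 24 alternatives. The other, 201366_at, read 1174.2 to 1550.8 and passed in no comparison.

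ANXA11, which binds PDCD6 and S100A6 and tethers RNA granules to lysosomes, had 3 probe sets that differed in pattern. Probe set 214783_s_at read 351.8 and 382.5 in 2H1, 380.2 and 389.9 in 3A4, and 354.2 and 369.8 in 47C2. All 6 of these arrays lay above every array of the other clones, which read 220.6 to 298.1. It rose against parental by 0.52, 0.59 and 0.50 in these clones (SE 0.14; limma adjusted p = 0.0131, 0.00495 and 0.0192). Against 16F8 it rose by 0.58, 0.65 and 0.56 (adjusted p = 0.0127, 0.00357 and 0.0341). Of these calls, that in 47C2 was lost in 6 of 24 alternatives, that in 2H1 in 2 and that in 3A4 in 0. The calls against parental were lost without the first parental array.

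The dimmer ANXA11 probe set 228727_at had another pattern, with r = 0.20 against 214783_s_at over the 9 clone means. Its clone mean was highest in 47C2, at 74.1 against 71.95 in parental. It read 78.5 and 65.4 in parental, against 37.1 and 36.8 in 2C11 and 35.0 and 41.8 in 45G3, and fell there by 0.92 and 0.87 (SE 0.19; limma adjusted p = 0.0023 and 0.00316). It also passed as lower in 2H1 (-0.53, adjusted p = 0.0499) and 3A4 (-0.51, adjusted p = 0.0494), calls that were lost in 15 of 24 alternatives each. With the poly-A level as a covariate these were -0.42 and -0.38 (adjusted p = 0.0947 and 0.137). The third probe set, 206200_s_at, read 684.3 to 863.3 and passed in no comparison. The probe sets report different parts or forms of the transcript, and which form each reports was not analysed here.

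**Figure D3:**
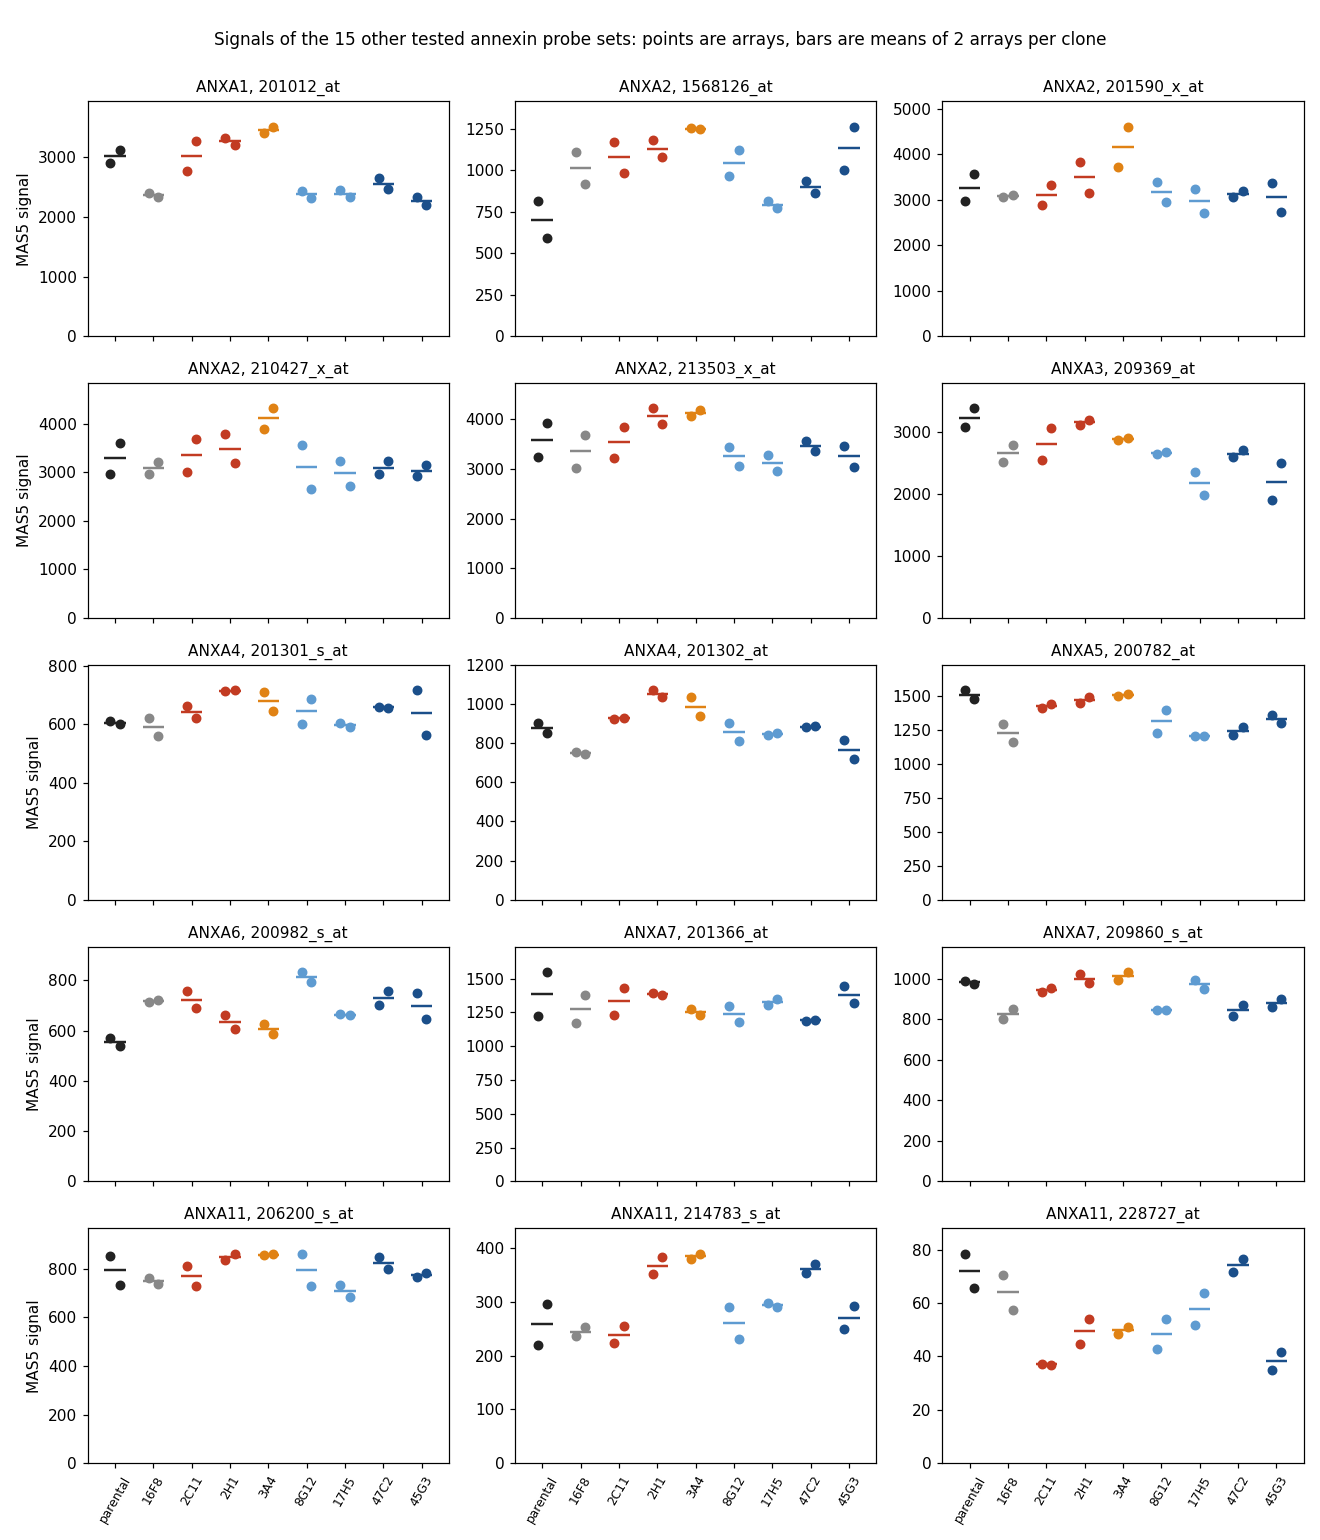
MAS5 signals of the 15 tested annexin probe sets other than ANXA10, by clone; each axis starts at 0, points are arrays and bars are means of 2. ANXA1 is higher in 2C11, 2H1 and 3A4 than in the 4 IDH2-mutant clones, ANXA6 is lowest in parental, and the 3 ANXA11 panels differ in pattern.

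With the clone as the replicate, none of the 15 annexin probe sets other than ANXA10 passed in any comparison of genotypes in limma. For mutant against wild-type clones 0 of 15 passed (0% of all probe sets), and 0 had an unadjusted p under 0.05. The nearest to the threshold were ANXA11 228727_at, at -0.44 ± 0.22, and ANXA2 1568126_at, at 0.31 ± 0.17 (SE; limma adjusted p = 0.672 for both). For IDH1-mutant and for IDH2-mutant clones against wild-type 0 of 15 passed each (0% of all probe sets each), and 6 and 1 had an unadjusted p under 0.05. For R172K against R140Q 0 of 15 passed (0% of all probe sets), and 0 had an unadjusted p under 0.05. Over all 29070 tested probe sets, 2116 had an unadjusted p under 0.05 for mutant against wild-type clones. For IDH1-mutant and IDH2-mutant clones against wild-type 4387 and 1462 did, and for R172K against R140Q 1932 did.

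For IDH1-mutant against IDH2-mutant clones 0 of 15 passed, where 0.00688% of all probe sets did, and 7 had an unadjusted p under 0.05. Over all 29070 tested probe sets 3541 had an unadjusted p under 0.05. The clone means of the 3 IDH1-mutant and 4 IDH2-mutant clones did not overlap for 6 of the 15, where 11.7% of all tested probe sets did not overlap. These 6 were ANXA1, ANXA2 210427_x_at, ANXA2 213503_x_at, ANXA3, ANXA4 201302_at and ANXA5, each higher in the IDH1-mutant clones, a direction that 5.68% of all probe sets showed. For ANXA1, ANXA4 201302_at and ANXA5 single arrays did not overlap either, as for 1.4% of all probe sets. ANXA4 read 926.9 to 1072.6 in IDH1-mutant and 718.4 to 902.9 in IDH2-mutant arrays, and ANXA5 1408.9 to 1512.8 and 1204.3 to 1398.1. Of the 6, 2 are probe sets of ANXA2 and are not independent of each other.

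ZEB1, a repressor of the epithelial programme, varied over the same clones, and the annexins differed in how they followed it. It read 145.2 and 153.5 in parental, 101.7 and 116.7 in 16F8, and 443.0 and 416.5 in 3A4. Over the 9 clone means ANXA4 201301_s_at had Pearson r = 0.92 with ZEB1 (Spearman 0.92, and r = 0.89 without 3A4 and 16F8). The other ANXA4 probe set, 201302_at, had r = 0.69 (0.47 without 3A4 and 16F8). For ANXA11, r was 0.85 in 206200_s_at (Spearman 0.85), 0.77 in 214783_s_at and -0.29 in 228727_at. The clone means of 201301_s_at and 206200_s_at spanned only 0.28 each on the log2 scale, and neither passed in any comparison. ANXA10 had r = 0.43 (Spearman 0.52), which was 0.05 without 3A4 and 16F8 and 0.83 without parental. The relation of ANXA10 to ZEB1 thus rested on which clones were counted. These are descriptions over points that share arrays.

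The partners of the annexins were read from a list of 31 genes, of which 28 were on the array and 24 passed the filter. Against parental, 1 to 4 of the 24 were higher and 3 to 6 lower in each clone, with medians of -0.14 to 0.03. Over all tested probe sets the medians were 0.008 to 0.045, and 8.38% to 31.5% were called per clone. S100A10, the ANXA2 ligand, read 2328.0 and 2682.1 in parental and rose only in 3A4 (3186.5 and 3190.4), by 0.35 against parental and by 0.40 against 16F8 (limma adjusted p = 0.0191 and 0.0136). 3A4 was also the clone highest in all 4 ANXA2 probe sets. S100A6, a ligand of ANXA11, passed in no clone against parental.

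S100A11, the ligand of ANXA1, fell in all 8 clones. It read 1928.9 and 1686.0 in parental, against 862.7 to 1332.8 in the 16 other arrays, which did not overlap. The fall ran from 0.45 in 3A4 (limma adjusted p = 0.0267) to 0.93 in 2C11 (adjusted p = 0.000257), with SE 0.15. PLAU, the urokinase that activates plasminogen bound by the ANXA2 complex, read 730.2 and 896.1 in parental and 246.8 to 621.1 in the others. It fell in all 8, by 0.45 in 17H5 (adjusted p = 0.0324) to 1.70 in 45G3 (adjusted p = 1.26e-07). PLAUR, its receptor, read 1247.1 and 1132.0 in parental and 487.8 to 741.8 in the others, and fell in all 8, by 0.70 in 47C2 (adjusted p = 0.000468) to 1.24 in 2H1 (adjusted p = 8.97e-07).

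PLA2G4A, the cytosolic phospholipase that ANXA1 inhibits, moved in the opposite direction in most clones. It read 120.7 and 104.6 in parental and rose in 6 clones, from 0.49 in 45G3 (limma adjusted p = 0.0393) to 0.78 in 17H5 (adjusted p = 0.00665). In 2H1 (96.4 and 91.5) and 3A4 (121.8 and 139.2), the clones highest in ANXA1, it did not pass against parental. There it was lower than in 16F8 by 1.03 and 0.56 on the log2 scale (adjusted p = 0.000422 and 0.0201). In 2C11, the clone next highest in ANXA1, it read 194.9 and 189.2 and rose against parental by 0.76 (adjusted p = 0.00303). PLAT, the tissue plasminogen activator, rose against parental in 16F8 (0.64), 8G12 (0.76), 17H5 (0.79) and 45G3 (0.66) and fell in 3A4 by 0.48 (adjusted p = 0.0122, 0.00445, 0.00623, 0.00733 and 0.0349). DYSF, a membrane repair protein of muscle that binds annexins, read 29.6 and 22 in parental and 8.8 and 9.0 in 16F8. It passed as lower in 16F8 than in parental (adjusted p = 0.00647) and as higher in 3A4 (21.0 and 17.8) than in 16F8 (adjusted p = 0.0328), but both 16F8 arrays lay below the array median, so no fold is given.

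**Figure D4:**
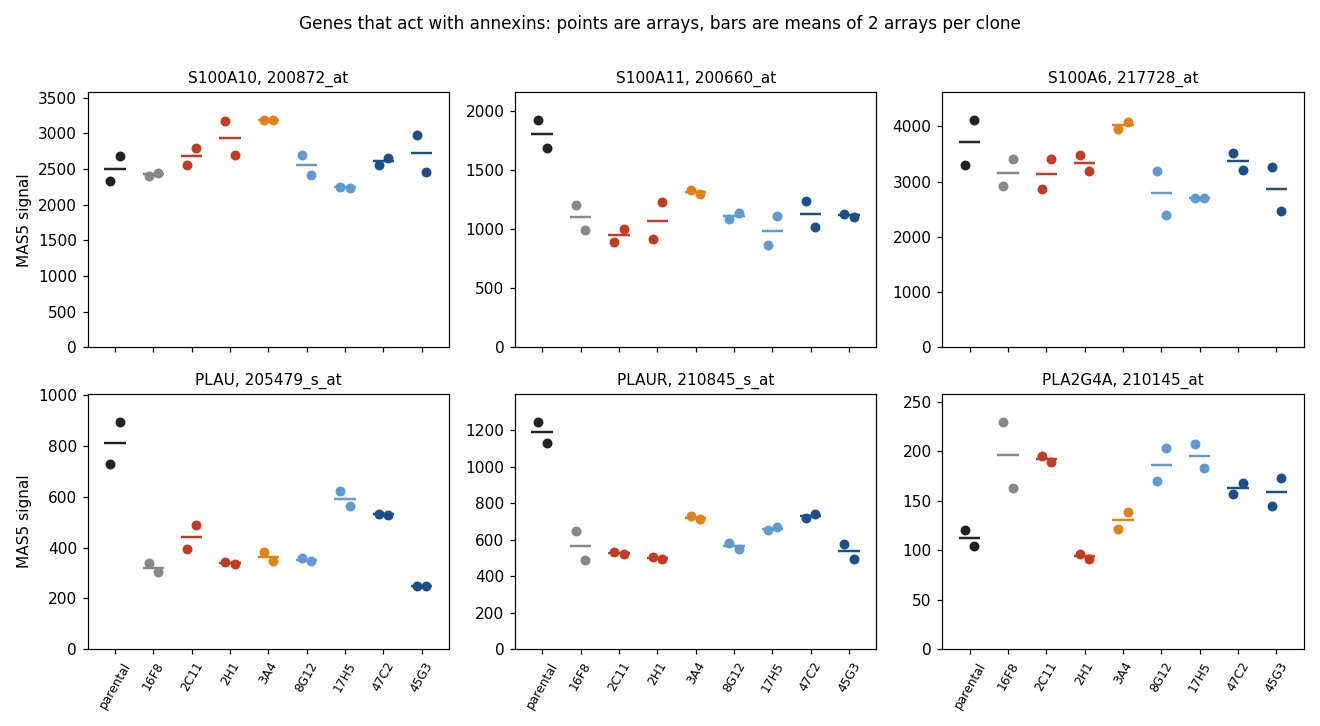
MAS5 signals of 6 annexin partners by clone; each axis starts at 0, points are arrays and bars are means of 2. S100A11, PLAU and PLAUR are highest in both parental arrays, and PLA2G4A is lowest in 2H1 and parental.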

How the data were processed

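RNA of 18 samples (9 HCT116 clones, 2 biological replicates each) was amplified and hybridised to 1-colour Affymetrix arrays, per the labels' protocols. The deposited values are probe set intensities on a linear scale, computed with MAS5 per the submitters' processing notes, which give no version. The mean of each array with 2% trimmed at both ends was 150.01 to 150.02, so the deposited intensities had been scaled to 1 level. No detection calls were used here, and the array median stood in for background. Of the probe sets, 41091 carried 1 gene symbol, 1801 several and 11721 none, and 62 were controls.

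Signals were taken as log2(signal + 2.2), the offset being the 25th percentile of all values. This offset understates changes of dim probe sets. The 29070 probe sets with both arrays of a clone at or above the median went into linear models (limma 3.58.1 under R 4.3.3; lmFit, then eBayes with a mean-variance trend). Benjamini-Hochberg adjustment of the two-sided p-values covered all of them, with a threshold of 0.05. Clones were compared on 18 arrays (9 residual degrees of freedom) and genotypes on 9 clone means (7, 6 or 4). The arrays, 2 per clone, limit the precision. The labels call the replicates biological but do not say whether they were separate cultures. The p-values of clones measure the spread between these arrays, and how much of it is technical is not known. Alternatives were another offset, no filter, quantile normalization, no variance trend, 1 probe set per gene, the poly-A level as a covariate, the replicate number or the clone as a block, and each array left out. On simulated data for 2C11 against parental (29070 probe sets, 200 changed) 26.9%, 68.7% and 95.5% of log2 changes of 0.5, 1 and 2 were recovered. For mutant against wild-type it was 11.9%, 44.8% and 90.9%.

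Replicate numbers did not pair the arrays consistently. Correlations of the deviations of same-numbered arrays ran from -0.375 to 0.344 in 36 pairs of clones, and 3 exceeded 0.1. Some pairs of clones thus deviated together and others in opposite directions. Whether arrays shared a batch across replicate numbers was not tested. All probe sets with a single symbol, that of a member, are named. Like genes were the 5 of highest r with a range of at least 1. Partners named were S100A10, S100A11, S100A6 and the 6 of the largest range over clones among partners passing in at least 1 clone against parental. The members and lists were chosen with earlier results of these data known. Protein sequences were not used here. Plots were made in matplotlib 3.10.9 (Python 3.11.15).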

Additional observations from a re-analysis of the deposited data

Results flagged for a closer look

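ANXA1 differed in sign between the mutant groups when set against parental. The log2 differences from parental were 0.00 to 0.20 in the 3 IDH1-mutant clones and -0.41 to -0.24 in the 4 IDH2-mutant clones. The difference between the group means was 0.44, which limma gave an adjusted p of 0.185 on clone means.

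ANXA2 210427_x_at was flagged for the same reason. Against parental it differed by 0.03 to 0.33 in the IDH1-mutant and by -0.14 to -0.08 in the IDH2-mutant clones. Against 16F8 it differed by 0.11 to 0.41 and by -0.06 to 0.00. The group means differed by 0.25 in both cases, with a limma adjusted p of 0.24. The probes of this set can match several transcripts.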

How the results depend on the processing

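None of the 48 calls or values on single annexins changed direction in any alternative run. For comparisons of genotypes the calls were counted and direction was not followed. With 1 probe set per gene, 15 of 64 annexin combinations passed against parental and 7 of 63 against 16F8, where fewer probe sets were tested. Over all genes 25613 of 100328 and 7878 of 87787 combinations passed. With all probe sets it was 47020 of 232560 and 13817 of 203490. With the poly-A level as a covariate, 20 of 112 annexin combinations passed against 16F8, and the cause was not tested. Over all probe sets 17614 of 203490 passed in that run. The annexin counts against 16F8 in this section include ANXA10, whose differences from 16F8 are no test. Leaving out 1 array at a time gave 11 to 28 against parental (lowest without parental replicate 2) and 7 to 15 against 16F8 (lowest without 16F8 replicate 1). Over all probe sets the same alternatives gave 30778 to 49025 and 7795 to 15249. Removing 1 array leaves its clone with a lone sample, which is assumed to vary like the others. With arrays as the unit and the clone as a random block, 1 annexin, ANXA1, passed between IDH1-mutant and IDH2-mutant clones (0.44, limma adjusted p = 0.0124). With the replicate block added it also passed (1 call, adjusted p = 0.0178). The replicate block in the fit of single clones, where numbers do not pair the arrays consistently, lost 4 of 48 calls or values. Each of the 48 calls or values on single annexins was followed over the alternatives, and each pair of result and alternative was counted. Of these pairs, 1022 kept the call or, for ANXA10 against parental, the value. In 151 the call was lost and in 7 the ANXA10 value moved, and 112 of the losses came from leaving out 1 array. An offset of 16 shrank the ANXA10 differences from parental to -3.53 in 2C11, -3.66 in 16F8, -3.68 in 8G12 and -3.50 in 17H5. Quantile normalization moved the median of all probe sets by at most -0.042. Signals under the array median give bounds only.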

Other observations

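ANXA9, an annexin that was not among the members, was chosen after its values were seen. Probe set 211712_s_at read 68.2 and 44.0 in parental, 85.8 and 74.9 in 8G12, 73.3 and 76.4 in 17H5, and 95.7 and 68.5 in 16F8. It read 48.8 and 37.0 in 2C11, 27.5 and 40.2 in 45G3, 24.0 and 31.1 in 3A4, 30 and 22.9 in 2H1, and 22.9 and 17.2 in 47C2. The last 4 clones had no array above the lowest of parental, 16F8, 8G12 and 17H5. Against 16F8 ANXA9 fell by 1.91 in 47C2, 1.55 in 2H1, 1.49 in 3A4 and 1.23 in 45G3 on the log2 scale (SE 0.26; limma adjusted p = 0.000162, 0.000598, 0.00046 and 0.0185). Over 9 clone means it correlated with ZEB1 at r = -0.92 and with the epithelial cadherin CDH1 at r = 0.86, and its second probe set, 210085_s_at, at -0.96 and 0.90. The points share their arrays, and the values are a description.

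Among the annexin partners, TRIM72, a membrane repair protein that acts beside annexins, fell against 16F8 in 2H1 by 0.75, in 3A4 by 0.73 and in 47C2 by 0.49 (SE 0.13; limma adjusted p = 0.00105, 0.000778 and 0.045). These are the clones in which ANXA11 214783_s_at rose.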
